A study of Sus scrofa with 12 samples.

Results

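The let-7 family is a group of small regulatory RNAs that includes miR-98 and is built on a shared seed, the stretch near the 5′ end that pairs with messenger RNAs. The members here were all mature miRNAs of the deposited small-RNA tables whose name starts with let-7 or is miR-98, with 1 entry per name, the one with the largest total. This gave 9 of 326 mature names, held in 11 of 385 entries. They were let-7a, let-7c, let-7d-5p, let-7d-3p, let-7e, let-7f, let-7g, let-7i and miR-98. Of these, let-7d-3p is the opposite arm of the let-7d hairpin and does not carry the family seed.

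RNA was sequenced from adipose tissue-derived mesenchymal stem cells (MSCs) and from the extracellular vesicles (EVs) that they released. The cells came from abdominal fat of 3 female domestic pigs aged 3 months and were used at passage 3 after culture with platelet lysate, and the EVs were collected from their culture medium by ultracentrifugation. For each pig there was 1 MSC and 1 EV library of small RNA and 1 of each of mRNA, 12 libraries in all, with no treatment or allele that distinguished the pigs. The library titles number the pigs differently in the 2 assays and add a further label to the third small-RNA pair, so values of the same pig were set together within an assay only. Libraries of 1 group came from different animals.

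Let-7 miRNAs are transcribed as long precursors that Drosha and Dicer cut to the mature form, and LIN28 proteins block that maturation in early cells. Mature let-7 rises as cells differentiate and lowers growth-promoting mRNAs such as those of the HMGA and IGF2BP families. Several members lie in shared transcripts with miR-99, miR-100 and miR-125 genes, and EVs can carry miRNAs from cell to cell.

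The small-RNA libraries of the MSCs held 9455607 to 15395871 counts. The EV libraries held 656888, 19454 and 18374 counts for pigs 1, 2 and 3, so that a count of 0 allowed up to 4.57, 154 and 163 CPM, the counts per 1000000 of a library. These totals are over all 385 entries, while the shares below are of the total with 1 entry per name unless entries are summed. The third MSC library stood apart in miR-21, a miRNA abundant in stromal cells. There miR-21 took 74.4% of the counts, against 28.8% and 33.5% in the other MSC libraries and 13.6%, 9.50% and 8.19% in the EVs. Of 9 blood-cell and platelet miRNAs, 8 had an entry. Their summed level was 88.9, 94.5 and 114 CPM in the MSCs and 41.9, 0 and 3837 CPM in the EVs of pigs 1, 2 and 3, and 7, 8 and 2 of the 8 were at 0 in those EV libraries (2, 2 and 3 in the MSCs). The 3837 CPM of the third EV library came from 70.5 counts. Of these, miR-486 held 45 and miR-126-3p held 22, while miR-451 and miR-142-3p held 1 each. In the MSCs, miR-126-3p held 1220, 1138 and 1047 of the summed 1369, 1390 and 1081.5 counts. Among MSC markers in the mRNA libraries, CD44 had 3603 to 10023 reads, NT5E had 900 to 1816 and ENG had 44 to 114, while the entry of THY1 was listed at 0. The leukocyte gene PTPRC had 2 to 10 reads and the platelet genes PPBP and ITGA2B were listed at 0, whereas the monocyte gene CD14 had 416 to 771. The endothelial gene PECAM1 had 111 to 215 reads in the MSCs and 20 to 78 in the EVs (log2 fold change −1.71, edgeR adjusted p = 0.249).

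The family made up a large part of both kinds of library. In such bulk RNA, fewer cells or vesicles of a kind and less of an RNA in each cannot be told apart. With 1 entry per name in the total, the family took 25.0%, 26.1% and 6.32% of the counts in the MSCs of pigs 1, 2 and 3 (19.1% ± 11.1, SD, n = 3) and 23.7%, 24.5% and 16.7% in their EVs (21.6% ± 4.30, SD, n = 3). Of the total over all entries, the same counts were 22.3%, 23.4% and 6.14% in the MSCs and 21.8%, 21.5% and 13.8% in the EVs. The third MSC library lay far below the others, and the groups overlapped. The Wilson 95% intervals were 23.9% to 25.1% in the EVs of pig 2 and 16.1% to 17.3% in those of pig 3. These intervals cover counting error only. With miR-21 taken out of the total, the shares were 35.0%, 39.2% and 24.7% in the MSCs (33.0% ± 7.47, SD, n = 3) and 27.4%, 27.1% and 18.2% in the EVs (24.2% ± 5.25, SD, n = 3), and the groups still overlapped. In that count the EV share was below the MSC share in each of the 3 pigs. The counts of the family were 0.868, 0.780 and 0.0849 times those of miR-21 in the MSCs and 1.74, 2.58 and 2.04 times in the EVs. The lowest EV ratio was above the highest MSC ratio, but miR-21 itself was lower in every EV library than in every MSC library. Its levels were 67757 to 125505 CPM in the EVs and 256807 to 723769 CPM in the MSCs. How many other miRNAs separate on a ratio to miR-21 was not counted.

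Reads that match more than 1 hairpin were divided between entries. The let-7a entries held 557549 and 555434 counts in the first MSC library, and the let-7f entries held 267834 and 259326, so either entry holds about as many of the reads of its name as the other. Over all names with 2 entries, 46 of 102 equal values above 0 ended in 0.5 of a count. Which hairpin the let-7a and let-7f reads came from cannot be told apart. With the entries summed, the family took 27.6%, 28.0% and 7.12% of the MSC libraries and 28.3%, 30.9% and 16.2% of the EV libraries.

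The most abundant member was let-7i, whose gene has no other miRNA gene within 100000 bases in the RefSeq annotation of the assembly Sscrofa11.1. It had 110118, 131563 and 40280 CPM in the MSCs and 125135, 88596 and 67186 CPM in the EVs. With 1 entry per name it was the highest of the 9 members in every library, and the groups overlapped. In the MSCs the next member was let-7a, whose mature form is that of the let-7 first found in worms, at 36214, 29374 and 4372 CPM, and its range did not overlap that of let-7i. In the EVs it had 22071, 16090 and 18021 CPM, and the highest value was 1.37 times the lowest.

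By mean MSC level with 1 entry per name, let-7g came next, though above let-7c in 1 of 3 MSC libraries only, at 21311, 23035 and 7286 CPM in the MSCs and 7309, 9775 and 24320 CPM in the EVs. The third EV library was above all the MSC libraries, and the other EV libraries were close to the lowest MSC library. For let-7c, whose gene neighbours that of miR-99a, the values were 24318, 23401 and 1904 CPM in the MSCs and 15792, 7771 and 13919 CPM in the EVs. For let-7f, encoded at 2 places, they were 17397, 16578 and 5593 CPM in the MSCs and 44804, 82196 and 5997 CPM in the EVs. The EVs of pigs 1 and 2 thus had more let-7f than any MSC library, and those of pig 3 had a level within the MSC range.

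The remaining members were less abundant. For let-7d-5p the levels were 6552, 3966 and 780 CPM in the MSCs and 1767, 10161 and 2286 CPM in the EVs, with the second EV library highest. For let-7e, which shares a transcript with miR-99b and miR-125a, they were 5386, 4924 and 680 CPM in the MSCs and 1126, 634 and 5134 CPM in the EVs. Both overlapped between the groups. The values of miR-98, whose gene lies beside that of let-7f-1, were 1214, 1108 and 409 CPM in the MSCs and 31.1, 25.7 and 395 CPM in the EVs, and of the 9 members it was the one whose groups did not overlap in CPM. For let-7d-3p they were 413.6, 372 and 109 CPM in the MSCs and 7.61, 0 and 653 CPM in the EVs.

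**Figure D1:**
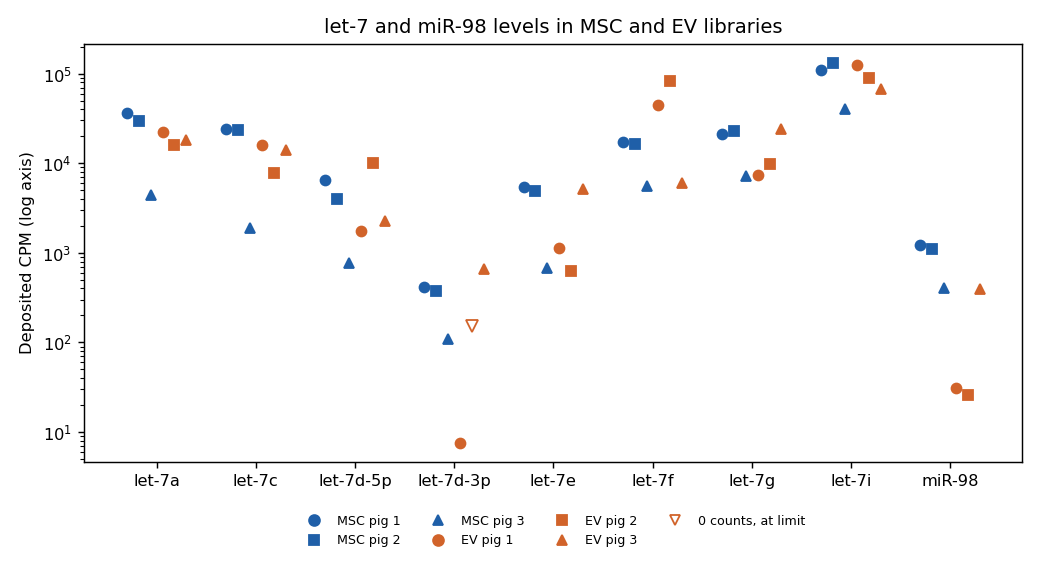
Deposited CPM of the 9 members (log axis) in the MSC (blue) and EV (orange) small-RNA libraries of pigs 1 (circles), 2 (squares) and 3 (triangles), with the open triangle at the 154 CPM that 0 counts allow for let-7d-3p in the EVs of pig 2. The third MSC library is the lowest MSC library for each member, and miR-98 is the member whose EV points all lie below its MSC points. The miR-98 point of the EVs of pig 2 stands on 0.5 counts.

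Among members ordered by mean CPM, neighbours in the MSCs had overlapping ranges except let-7i over let-7a, and in the EVs all neighbours overlapped. With entries summed, let-7i and let-7a overlapped in the MSCs while let-7i stayed higher in 3 of 3 libraries, let-7a lay above let-7g in the EVs without overlap, let-7f exceeded let-7i in the EVs of pig 2, and let-7f was above let-7g in 3 of 3 MSC libraries (means 25964 and 17211 CPM).

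The low values of miR-98 and let-7d-3p rested on few EV counts. For miR-98 there were 20.42, 0.5 and 7.25 counts in the EVs of pigs 1, 2 and 3, against 3869 to 18693 in the MSCs. In pig 1 the MSCs had 39.1 times the CPM of the EVs. In pig 2 the EV count was under the floor of 3 counts per library, and the MSC level was 7.19 times that floor. The upper Wilson 95% limit of that EV value was 197 CPM. In pig 3 the levels of 409 and 395 CPM could not be separated at this depth, since the Wilson 95% interval of the EV value was 185 to 786 CPM. The reads of let-7d-3p went from 5 to 0 to 12 in the same 3 EV libraries. Its MSC level was 54.4 times the EV level in pig 1 and 2.41 times the floor of 3 counts in pig 2. The upper Wilson 95% limit in the EVs of pig 2 was again 197 CPM. In pig 3 the EV level of 653 CPM (Wilson 95% interval 374 to 1141 CPM) was above the 109 CPM of the MSCs.

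Within the family, a member can be followed without a library total. Let-7i made up 49.4%, 56.1% and 65.6% of the family counts in the MSCs and 57.4%, 41.2% and 48.7% in the EVs. The let-7f share was 7.80%, 7.08% and 9.11% in the MSCs, a narrow range, and 20.5%, 38.2% and 4.35% in the EVs, a wide one that ran from below to above the MSC values. With the entries summed, let-7f took 12.4%, 11.7% and 15.5% in the MSCs and 30.9%, 51.8% and 7.37% in the EVs, so that in the EVs of pig 2 it was the largest member, ahead of let-7i at 28.6%. The let-7g share was 9.56%, 9.83% and 11.9% in the MSCs and 3.35%, 4.54% and 17.6% in the EVs, and it was the EVs of pig 3 that exceeded the MSCs. For let-7a the shares were 16.2%, 12.5% and 7.12% in the MSCs and 10.1%, 7.47% and 13.1% in the EVs, and with the entries summed they were 26.2%, 20.98% and 12.3% and then 15.6%, 10.4% and 22.3%. Shares of let-7c were 10.9%, 9.99% and 3.10% in the MSCs and 7.24%, 3.61% and 10.1% in the EVs.

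Of the 9 members, miR-98 was the one whose share of the family did not overlap between the groups, at 0.545%, 0.473% and 0.666% in the MSCs and 0.0143%, 0.0119% and 0.286% in the EVs. The two-sided exact permutation test gave p = 0.1, the smallest value that 3 against 3 libraries allow. Without the third EV library, 5 of 9 members did not overlap. Fewer libraries make such a separation easier to reach, and no like share over all miRNAs was counted. In that setting the edgeR fit called 47.7% of 243 miRNAs at the adjusted threshold.

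**Figure D2:**
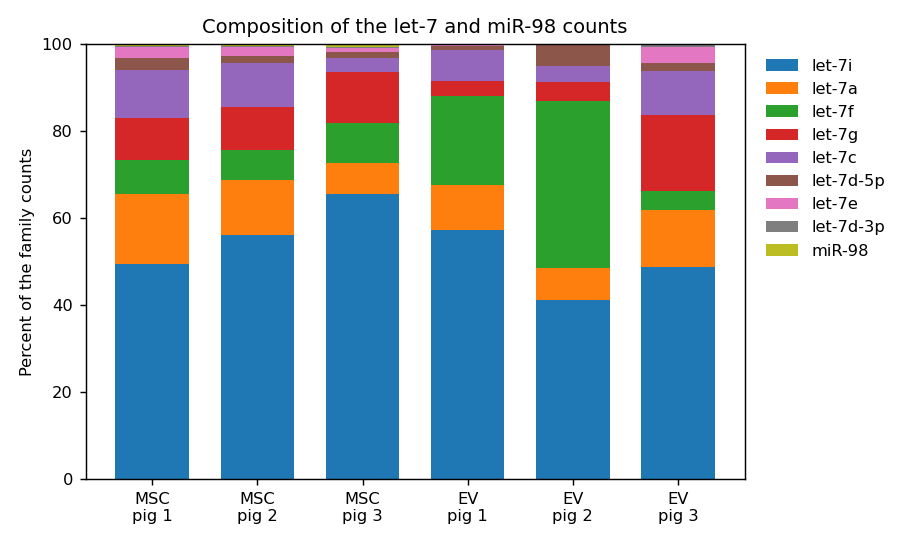
Stacked bars of each member as a percentage of the family counts in each small-RNA library, with 1 entry per name. Let-7i fills the largest part of every bar (41.2% to 65.6%), and let-7f fills 20.5% and 38.2% in the EVs of pigs 1 and 2 against 4.35% in those of pig 3.

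The difference between EVs and MSCs was fitted across 220 miRNAs with the quasi-likelihood test of edgeR, with TMM scaling, which sets the libraries to a common typical miRNA. No member passed at a Benjamini-Hochberg adjusted p under 0.05 with a fold change over 2, as was the case for 0% of all miRNAs tested. By the unadjusted p under 0.05 with the same fold change, 1 of 9 members was lower in the EVs (miR-98) and 0 were higher, where the shares over all miRNAs tested were 24.1% lower and 6.36% higher. Of all 220 miRNAs, 67 had an unadjusted p under 0.05. In CPM, all EV libraries were below all MSC libraries for 1 of 9 members and for 23.6% of all miRNAs, and above for 0 members and 6.82% of all. In TMM-scaled CPM, 4 of 9 members (let-7d-3p, let-7e, let-7g and miR-98) lay below without overlap, beside 38.2% of all miRNAs. In CPM with miR-21 left out of the total, the count below was 2 of 9 (let-7i and miR-98), beside 30.5% of all.

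The fitted log2 fold change of miR-98 was −4.20 (SE 1.31, edgeR unadjusted p = 0.0142, adjusted p = 0.0813). The unadjusted call was lost without the first, the second or the third MSC library (edgeR unadjusted p = 0.101, 0.128 and 0.0585), while the log2 fold change was −3.83, −3.82 and −4.11, and with limma on log2(CPM + 1) the value was −3.56 (limma unadjusted p = 0.0796). With DESeq2 it was −3.55 with an adjusted p of 0.0403, a lower call shared by 6.36% of the miRNAs, and with the library total as the scaling it was −2.68 (edgeR adjusted p = 0.529). For let-7f the value was 1.76 (SE 1.19, edgeR adjusted p = 0.379) and for let-7d-3p it was −2.07 (SE 1.58, edgeR adjusted p = 0.439). The values of let-7e and let-7g were −1.53 (SE 0.82, edgeR adjusted p = 0.260) and −1.07 (SE 0.65, edgeR adjusted p = 0.322), and with library totals as the scaling they were −0.59 and −0.23. The 4 others lay between −0.54 for let-7c and 0.46 for let-7d-5p, each smaller than its SE, with let-7a at −0.45 and let-7i at −0.27. The signs of let-7a, let-7c, let-7d-5p and let-7i changed under at least 1 other setting. Over the family, 7 of 9 values were negative with a median of −0.54. Over all miRNAs tested, 140 of 220 were negative with a median of −0.999. The median SE was 0.85 for the members and 1.72 over all.

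The third EV library bore on several of these values. Without it, the log2 fold change of let-7f was 2.13 (SE 0.38, edgeR adjusted p = 0.0141), that of let-7d-3p was −5.44 (edgeR adjusted p = 0.0131) and that of miR-98 was −5.35 (edgeR adjusted p = 0.0167). Thus 3 of 9 members passed, 1 higher and 2 lower, in a fit that called 47.7% of 243 miRNAs. By the unadjusted p it had 4 of 9 members lower and 1 higher, where 46.1% of all miRNAs were lower and 9.88% higher. The median log2 fold change was −6.39 over all miRNAs in that fit and −0.27 over the members, while let-7a, let-7c, let-7g and let-7i were at −0.16, −0.27, −1.13 and 0.08. Other choices moved let-7f and let-7d-3p the other way. For let-7f the value was 0.75 without the second EV library (edgeR adjusted p = 0.740) and 0.89 with the pig as a block (edgeR adjusted p = 0.806). For let-7d-3p it was −1.46 without the first EV library (edgeR adjusted p = 0.464) and −0.36 with library totals as the scaling (edgeR adjusted p = 0.982). When both libraries of pig 3 were left out, the same numbers of members passed, 1 higher and 2 lower, and 59.2% of all miRNAs were called. The third EV library also had the highest summed level of the listed blood-cell and platelet miRNAs, at 3837 CPM, mostly from miR-486 and miR-126-3p. The part of these miRNAs in the family's values was not tested.

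**Figure D3:**
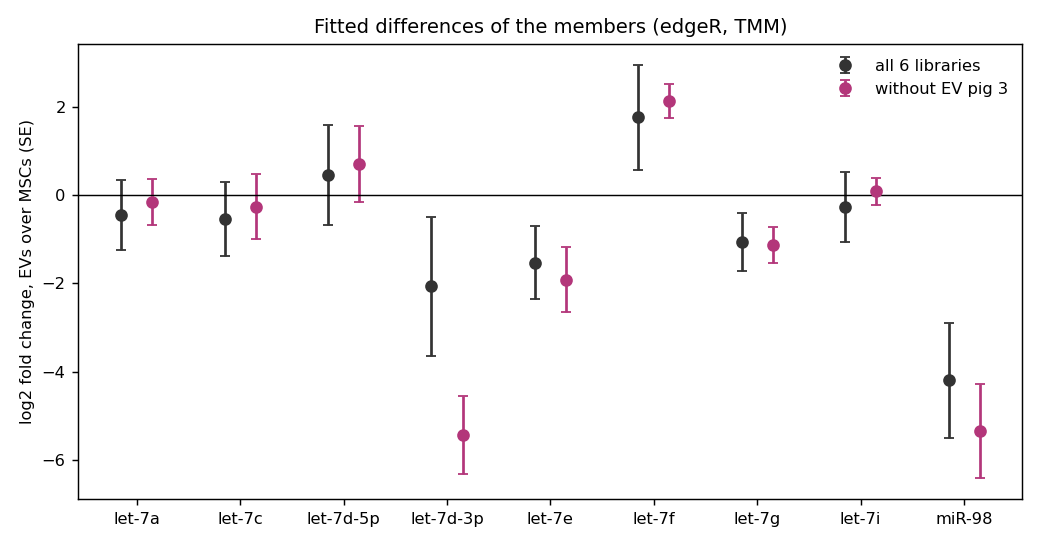
Fitted log2 fold change of EVs over MSCs for each member (points, bars are 1 SE) with all 6 libraries (black) and without the EVs of pig 3 (magenta). Let-7f at 2.13, let-7d-3p at −5.44 and miR-98 at −5.35 pass the adjusted threshold without that library. The error bar of every member is shorter there.

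Within pigs, the scale decided the direction in pig 3. In CPM, 7 of 9 members were lower in the EVs of pig 1 and 7 of 9 in those of pig 2, but 8 of 9 were higher in the EVs of pig 3. In TMM-scaled CPM the counts in pigs 1 and 2 were the same, and 9 of 9 members were lower in the EVs of pig 3. How many of all miRNAs tested went each way within a pig was not counted, so these counts are not particular to the family. TMM factors were 0.306 for the third MSC library and 3.24 for the third EV library, against 0.813 to 1.18 for the others. The direction of a single member in pig 3 therefore depended on the scaling, except for miR-98, which was lower on both, by less than the counting error in CPM.

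The members differed in how low they were in the third MSC library, the one in which miR-21 took 74.4% of the counts. The mean CPM of MSC pigs 1 and 2 was 12.5, 7.501, 7.58 and 6.74 times that of pig 3 for let-7c, let-7a, let-7e and let-7d-5p. It was 3.60 times for let-7d-3p and 2.84 to 3.04 times for let-7f, let-7g, let-7i and miR-98. In CPM with miR-21 left out of the total the first 4 were still 5.05, 3.02, 3.05 and 2.70 times higher in pigs 1 and 2, whereas let-7d-3p was 1.45 times and let-7f, let-7g, let-7i and miR-98 were 1.14 to 1.23 times higher. The levels of miR-98 on that scale were 1908, 1855 and 1645 in the 3 MSC libraries, and those of let-7f were 27337, 27742 and 22492. These members were grouped after the values were seen, and the grouping has no test.

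**Figure D4:**
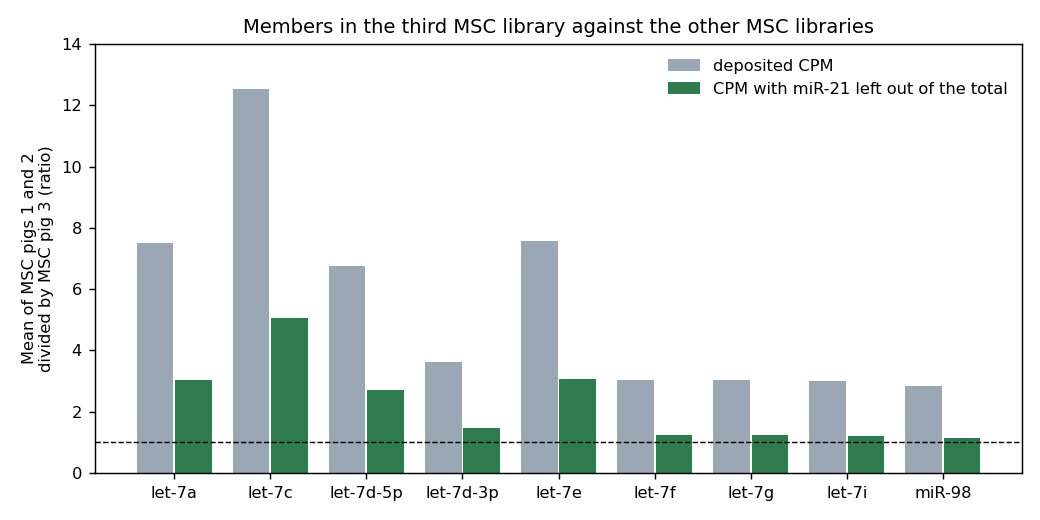
Mean level of each member in the MSCs of pigs 1 and 2 divided by its level in the MSCs of pig 3, in deposited CPM (grey) and in CPM with miR-21 left out of the total (green), with the dashed line at 1. Green bars of let-7a, let-7c, let-7d-5p and let-7e stand at 2.70 to 5.05, that of let-7d-3p at 1.45 and those of let-7f, let-7g, let-7i and miR-98 at 1.14 to 1.23.

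Ratios between members showed how evenly pairs were kept. In the MSCs, miR-98 stood to let-7f at 0.0698, 0.0669 and 0.0732, and let-7g to let-7i at 0.194, 0.175 and 0.181, both within a few hundredths. With the let-7f entries summed the first ratio was 0.0355, 0.0340 and 0.0370, and the let-7f reads come from the neighbour of miR-98 and from another place in unknown parts. In the EVs of pig 1 the miR-98 to let-7f ratio was 0.000694, and in those of pig 3 it was 0.0658, near the MSC values. In pig 2 the EV count of miR-98 was too low for a ratio. The let-7g to let-7i ratio was 0.0584, 0.1103 and 0.362 in the EVs, on both sides of the MSC range. For let-7f to let-7a the ratio was 0.480, 0.564 and 1.28 in the MSCs and 2.03, 5.11 and 0.333 in the EVs, higher than in the MSCs for pigs 1 and 2 and lower for pig 3. The arms of let-7d stood at 15.8, 10.7 and 7.16 (5p over 3p) in the MSCs and at 232 and 3.50 in the EVs of pigs 1 and 3. In the EVs of pig 2, 198 counts of the 5p arm faced 0 of the 3p arm.

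Cluster partners were looked up in RefSeq for Sscrofa11.1, where let-7c lies near miR-99a, let-7e near miR-99b and miR-125a, and let-7a-1 near miR-100 and miR-125b-1. The genes of let-7a-2, let-7f-2 and let-7d lie together, and let-7g has MIR135-1 near it. The ratio of let-7e to miR-99b was 0.960, 0.992 and 0.527 in the MSCs and 0.0753, 0.108 and 0.456 in the EVs, so the EVs lay below the MSCs with no overlap. The interval from counting alone (95%) was 0.356 to 0.579 in the EVs of pig 3, which includes the MSC value of that pig. The level of miR-99b itself was 5609, 4962 and 1290 CPM in the MSCs and 14943, 5860 and 11266 CPM in the EVs. Against miR-125a, let-7e stood at 1.07, 0.953 and 1.60 in the MSCs and at 2.99 and 0.335 in the EVs of pigs 1 and 3, and the groups overlapped. How often ratios of other miRNA pairs separate in these libraries was not counted.

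The let-7c to miR-99a ratio was 2.57, 3.86 and 0.199 in the MSCs and 30.0, 3.44 and 2.69 in the EVs. The low let-7c of the third MSC library was thus not seen in miR-99a, which had 9463, 6069 and 9547 CPM in the MSCs. The let-7a to miR-100 ratio behaved alike there, at 0.547, 0.640 and 0.0900 in the MSCs and 0.291, 0.435 and 0.271 in the EVs. With the let-7a entries summed it was 1.09, 1.28 and 0.180 in the MSCs and 0.582, 0.869 and 0.541 in the EVs. Let-7c to miR-125b, its partner in other mammals, was 3.01, 3.38 and 0.680 in the MSCs and 27.7, 1.71 and 1.07 in the EVs, and 1.55, 1.73 and 0.351 and then 15.4, 0.854 and 0.561 with the miR-125b entries summed. None of the 5 partners passed the adjusted threshold (edgeR), with log2 fold changes from −3.03 for miR-99a (adjusted p = 0.101) to 1.096 for miR-99b (adjusted p = 0.424).

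By the mean absolute difference of centred log2(CPM + 1) over the 6 libraries, the miRNAs nearest to the summed family were miR-100 (0.62), miR-10a-5p (0.66) and miR-23a (0.71). The level of miR-100 was 66150, 45917 and 48578 CPM in the MSCs and 75961, 37011 and 66614 CPM in the EVs. All 6 values share libraries with the family, so the likeness is a description.

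The mRNA libraries of the MSCs and EVs held 10429085 to 12276855 reads on genes. Of 34 mRNAs known as let-7 targets, 23 had an entry under their symbol, 4 entries were listed at 0 (IGF2BP1, NRAS and SOCS1 among them) and 17 could be tested across 12392 entries. As HUWE1, a ubiquitin ligase used in most cells, was also listed at 0, a 0 in this table may be a gene that was not counted. None of the 17 passed at an adjusted p under 0.05 (edgeR), as did 0% of all entries. By the unadjusted threshold with a fold change over 2, 2 were higher in the EVs and 1 was lower, where 5.55% and 3.57% of all entries were. The median log2 fold change was 0.10 over the 17 and −0.02 over all.

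INSR, the insulin receptor (chromosome 2, 72275693 to 72357630, build susScr3), had 42, 26 and 14 reads in the MSCs and 84, 173 and 74 in the EVs. Its log2 fold change was 2.01 (SE 0.49, edgeR adjusted p = 0.219), higher in 3 of 3 pigs without overlap. BACH1, a repressor of heme-responsive genes (chromosome 13, 203134183 to 203148106), had 399, 175 and 184 reads in the MSCs and 433, 1172 and 1120 in the EVs, with a log2 fold change of 1.93 (SE 0.47, edgeR adjusted p = 0.219). BCL2L1, which encodes a survival factor (chromosome 17, 40303991 to 40304598), had 57, 27 and 37 reads in the MSCs and 13, 9 and 16 in the EVs, with a log2 fold change of −1.57 (SE 0.47, edgeR adjusted p = 0.243). On the scaled counts, all EV libraries were above all MSC libraries for 3 of the 17 targets (INSR, BACH1 and TGFBR1, a receptor of TGF-beta, at a log2 fold change of 0.91) and below for 1 (BCL2L1), where this held for 14.3% and 13.6% of all entries. DESeq2 called INSR and BACH1 at adjusted p-values of 0.00930 and 0.00825, in a fit that called 2.04% of all entries higher.

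With the pig as a replicate block, 4 targets were higher by the unadjusted threshold, in a fit where 8.01% of all entries were. They were INSR, BACH1, TLR4 and PRDM1, with adjusted p-values of 0.0669, 0.0945, 0.242 and 0.0563 in that edgeR fit. For TLR4, a receptor of innate immunity, the log2 fold change was 1.04 (unadjusted p = 0.0436 in edgeR). For PRDM1, a transcriptional repressor, it was 1.55 (unadjusted p = 0.000791 in edgeR). TLR4 had 31, 184 and 50 reads in the MSCs and 141, 305 and 59 in the EVs, and PRDM1 had 359, 796 and 181 and then 646, 2685 and 721, so both had more reads in the EVs of each pig while the groups overlapped. Without the block, TLR4 was at 0.79 and PRDM1 at 1.4999 (edgeR unadjusted p = 0.349 and 0.0662), and without the second EV library they were at 0.13 and 0.67 (edgeR unadjusted p = 0.886 and 0.340). Without the second MSC library these 4 genes were higher too, beside 4.44% of all entries. Without the first EV library 4 targets were higher, with TGFBR1 (1.07, edgeR unadjusted p = 0.0239) in place of TLR4, beside 5.79% of all entries.

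IGF2BP2 and DICER1, both known for let-7 control, passed neither threshold. IGF2BP2, an mRNA-binding protein, had 645, 595 and 849 reads in the MSCs and 482, 582 and 682 in the EVs (log2 fold change −0.21, edgeR adjusted p = 0.710). DICER1, which makes mature miRNAs, had 310, 183 and 296 reads in the MSCs and 377, 429 and 226 in the EVs (0.40, edgeR adjusted p = 0.455). The MYC entry held 4, 13 and 2 reads in the MSCs and 3, 1 and 2 in the EVs and was too low to test, and HMGA2, CCND1 and LIN28B had no entry under their symbols.

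A list of 9 genes held factors that act on let-7 precursors and HUWE1, listed as the host gene of miR-98. Of these 9 genes, 7 had an entry, LIN28A and HUWE1 were listed at 0 and 5 were tested. By either threshold 0 passed in either direction with edgeR, DESeq2 or limma, and the median log2 fold change was −0.39. TUT4, which adds uridines to the let-7 precursor, was at 0.69 (SE 0.28, edgeR unadjusted p = 0.0387, adjusted p = 0.291), under a 2-fold change. TRIM25, DIS3L2, KHSRP and HNRNPA1 had negative values from −0.73 to −0.25 with edgeR adjusted p-values of 0.4143 to 0.582.

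**Figure D5:**
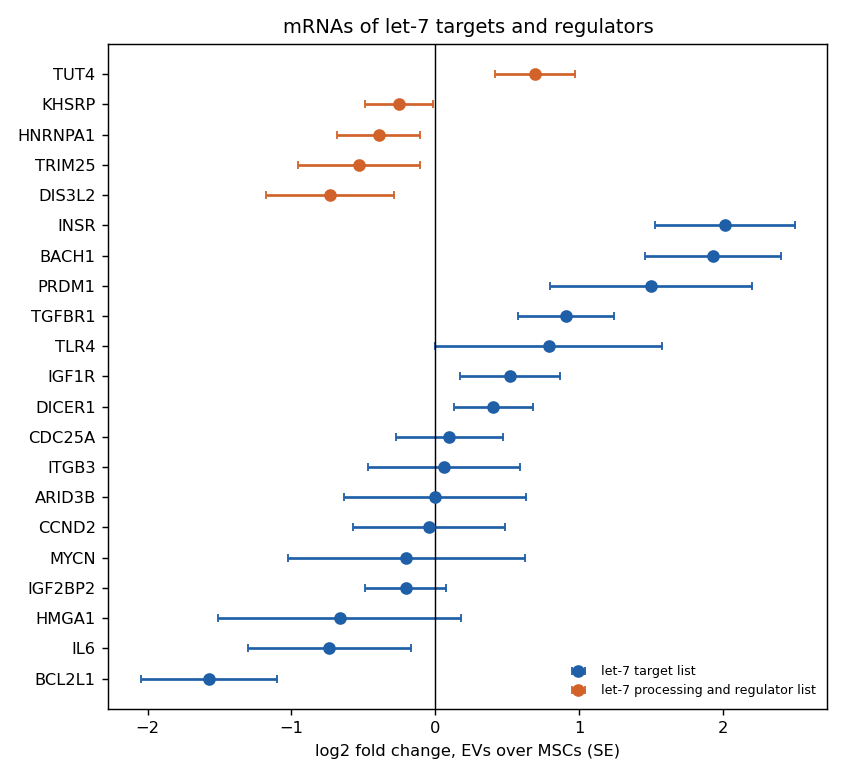
Fitted log2 fold change of EVs over MSCs in mRNA (points, bars are 1 SE) for 16 of the 17 let-7 target mRNAs tested (blue) and 5 factors that act on let-7 precursors (orange). INSR (2.01) and BACH1 (1.93) lie highest, BCL2L1 (−1.57) lowest, and the median of all 17 targets is 0.10.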

How the data were processed

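Small RNA and mRNA were sequenced from MSCs and EVs of 3 pigs. The authors deposited expected counts and CPM for each mature miRNA and hairpin, made with CAP-miRSeq, in which reads that match several hairpins are shared in fractions. The CPM are the counts scaled to the column total over 385 entries. For mRNA the authors deposited read counts per gene and RPKM (TopHat alignment, featureCounts per the methods of the study), and the submitters' processing notes name cutadapt, Bowtie, HTSeq and susScr3. Of 29661 mRNA entries, 3 with shifted columns were left out.

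Expected counts were rounded, so that the 0.5 counts of miR-98 in 1 EV library became 0. The contrast of EVs with MSCs was fitted in R 4.3.3 by edgeR 4.0.16 (filterByExpr, TMM, quasi-likelihood test) across all features tested, with Benjamini-Hochberg adjustment. Alternatives were other scaling, no filter, DESeq2 1.42.0, limma 3.58.1 on log2(CPM + 1), log2(CPM + 0.1) or log2(RPKM + 1), summed entries, a block for the pig, and 1 library left out at a time. The fit without both libraries of pig 3 was added after the data were seen. The common dispersion in edgeR, a measure of the spread between libraries beyond counting error, was 1.24 in small RNA and 0.175 in mRNA. How large a change the fits can find at this spread is not given here.

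Text names all 9 members, cluster partners, miR-21, the 3 nearest profiles, a fixed set of target and regulator genes (of which 1 is not reported here), and listed genes past the unadjusted threshold. Other listed genes are named after their values were seen. The members and lists were chosen with earlier results of these data known. Pairing comes from the pig labels. Deviations of same-pig libraries correlated at −0.227, −0.0187 and −0.132 in small RNA and at 0.251, 0.384 and 0.408 in mRNA. Those of different pigs correlated at −0.0781 to 0.170 in small RNA and at −0.364 to −0.0385 in mRNA. The same-pig values were thus the higher ones in mRNA but not in small RNA. The p-values measure the spread between 3 libraries a group. Depth is 18374 to 15395871 counts per small-RNA library, and intervals cover counting error only. RefSeq was used for neighbouring genes only. No miRNA sequence is printed.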

Additional observations from a re-analysis of the deposited data

How the results depend on the processing

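Calls on the members moved with several choices. The count of members lower by the unadjusted p was 1, and it was 0 with the library total as the only scaling and with limma on log2(CPM + 1) or log2(CPM + 0.1). Leaving out single libraries gave 0 to 4 lower and 0 to 1 higher by the unadjusted p, and 0 to 2 lower and 0 to 1 higher by the adjusted p. Each MSC library left out in turn gave 0 lower, and the upper ends came without the third EV library, where 46.1% of all miRNAs were lower and 9.88% higher by the unadjusted p. DESeq2 gave 1 lower by the adjusted p. Without both libraries of pig 3, an alternative chosen after seeing the data, the counts were 1 higher and 2 lower by the adjusted p and 1 higher and 3 lower by the unadjusted p. The median log2 fold change of all miRNAs was −0.999 with TMM, −0.49 with relative log expression factors and 0.00 with library totals. The mean MSC share of the family was 33.0% in the total without miR-21. The number of members whose family share did not overlap was 1 and reached 5 when libraries were left out in turn (lowest 1), 2 without the first EV library. No like share over all miRNAs was counted.

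The sign reversed for let-7a (0.15) and let-7c (0.22) under both limma settings, for let-7d-5p (−1.50 without the second EV library, leave-one-out maximum 0.76), and for let-7i (0.036 with library totals, 0.12 with both limma settings, 0.08 without the third EV library, leave-one-out minimum −0.78, and 0.17 without both libraries of pig 3). With the pig as replicate block, let-7d-5p was at −0.52 and CCND2 at 0.026, the targets higher by the unadjusted p numbered 4, and the paired fit of miR-98 gave −4.76 (edgeR unadjusted p = 0.0488, adjusted p = 0.615). It changed no other count of member or target calls by over 1.5 times.

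Of the targets, 2 were higher by the adjusted p with DESeq2, and limma on log2(RPKM + 1) gave 1 higher and 0 lower by the unadjusted p. The unadjusted higher count was 2 to 4 when libraries were left out, with 4 without MSC replicate 2 or EV replicate 1. Reversed signs were those of HMGA1 (0.37) and ITGB3 (−0.20), MYCN (0.43) and CDC25A (−0.12) without MSC replicate 2. Without EV replicate 3 they were those of MYCN (0.31), CCND2 (0.17), ARID3B (0.33) and ITGB3 (−0.43). CCND2 reversed to 0.44 without MSC replicate 3 and to 0.011 with limma, ARID3B to 0.25 without MSC replicate 1 and to 0.0048 with limma, and CDC25A to −0.06 without EV replicate 1. The other ends of the leave-one-out ranges were −1.91 for HMGA1, −0.87 for MYCN, −0.32 for CCND2, 0.24 for CDC25A, −0.27 for ARID3B and 0.28 for ITGB3. The causes were not tested. The few counts in the EVs of pigs 2 and 3 limit what low members can show.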
